A study of Danio rerio with 3 samples.

Results

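The genes described here encode enzymes and ligase parts of the ubiquitin system in whole zebrafish (Danio rerio) larvae, and they were chosen by name. A gene was a member when its only symbol in the array annotation began with the root of a ubiquitin-activating (uba), conjugating (ube2) or ligating enzyme (ube3, ube4, rnf, trim, nedd4, itch, smurf), a cullin-RING ligase part (cul, skp, fbx), a deubiquitinase (usp, uchl, otu), or a SUMO or NEDD8 protein or protease (sumo, nedd8, senp). This gave 166 of the 8793 genes with a single symbol. Names decide membership, not function, so usp6nl is included although it is a GTPase-activating protein and not a protease.

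Larvae exposed to shoreline oil emulsion from 48 to 96 h post-fertilization (hpf) form the late-window group, and larvae exposed from 0 to 48 hpf the early-window group. Per the labels, 250 mg of Gulfport emulsion coated the cup floor under 30 embryos in 100 ml of medium. Control larvae had medium without emulsion. All 3 groups came from bred adult zebrafish (the sources used here name no strain or genotype), and RNA was taken at 192 hpf, after 96 h (late window) or 144 h (early window) in clean medium. Each group was measured on 1 Affymetrix array, and how many larvae were pooled for it is not stated. There are therefore no replicates, no test was possible, and every value describes these 3 arrays. Both exposed groups are compared with the same control array, so an error in its reading of a gene moves both comparisons alike.

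Ubiquitin is a small protein that is joined to other proteins in a relay. An E1 enzyme activates it, an E2 enzyme carries it, and an E3 ligase brings the E2 to the substrate; cullin-RING ligases do this with exchangeable F-box or other receptors held on a cullin scaffold. Deubiquitinases remove ubiquitin again, and chains of it send many proteins to the proteasome. SUMO and NEDD8 are relatives of ubiquitin with E1, E2 and protease enzymes of their own, and NEDD8 on a cullin switches the ligase on. Roles given below are those known from mammals unless stated otherwise.

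The values are log2 expression values, a difference is exposed minus control (or late minus early) on that scale, and a gene was counted when its highest value of the 3 reached 7.21, the median of all values. This level floor left 5492 of all genes and 111 of the 166 members. Of these members, 108 were above the floor on all 3 arrays. The other 3 were fbxo42, rnf146 and ube2d1b. The differences were not centred, but the deposited values were normalized to a common distribution, which removes any shift of all genes. Over 18 probe sets for hybridisation spike-ins, the mean difference from control was 0.01 in the late window and -0.50 in the early window. If the spike-ins set the scale, every early-window difference would lie higher by about that amount. The SD between probe sets within a gene, called the probe-set SD below, was taken over 718 genes. It was 0.16 for the late-window difference and 0.11 for the early-window difference. Over the 18 spike-in probe sets the SD of the difference was 0.14 and 0.12 in the same order. Neither is a spread between replicates. The 3' minus 5' signal of actin was 2.28, 2.02 and 2.12 on the late-window, early-window and control arrays. That of gapdh was 0.34, 0.43 and 0.38, so the 2 genes do not order the arrays alike.

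Marker genes of several tissues were bright. Genes of neurons and glia (8 of 8 measured above the floor) averaged 10.42, 10.38 and 10.55 on the late-window, early-window and control arrays, and skeletal muscle genes (9 of 9) averaged 14.07, 14.15 and 14.08. Photoreceptor genes (7 of 7) averaged 11.09, 10.94 and 11.59 in the same order, epidermal genes (7 of 7) 10.83, 11.40 and 11.48, and exocrine pancreas genes (7 of 7) 11.39, 10.62 and 11.31. Liver genes (8 of 8) averaged 11.27, 11.47 and 10.97, but they did not move alike. Their early-window differences ran from -0.04 (apoa2) to 1.99 (hpxa), with a median of 0.29. Immune genes (4 of 6) averaged 7.59, 8.06 and 7.63, with late-window differences from -0.32 (lyz) to 0.26 (mpx). Erythroid genes (2 of 4) averaged 8.22, 8.16 and 7.83. No germ cell marker (0 of 5) was above the floor. In RNA from whole larvae, fewer cells of a type and less RNA per cell cannot be told apart. The part of these marker differences in the values below was not tested.

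By the deposited values, most transcripts of the ubiquitin system lay close to control after either exposure. In the late window the median member differed from control by -0.01, beside -0.02 for all 5492 genes, and 98 of 111 members (88.3%) were less than 0.32 from control on the log2 scale, the lower of the thresholds used, beside 89.5% of all genes. The early-window median was -0.01, beside 0.00 for all genes, and 105 members (94.6%) were less than 0.32 from control, beside 94.4%. The spread over members was also close to that over all genes, with an SD of 0.22 beside 0.23 in the late window and 0.15 beside 0.17 in the early window.

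Past 1.5-fold, 2 members were lower in the late window, ube2ql1 and rnf13 (1.80% of members, beside 0.674% of all genes), and 0 were higher (beside 1.11%). After early exposure 1 member was lower, ube2ql1 (0.901%, beside 0.601%), and 0 were higher (beside 0.401%). Only ube2ql1 in the late window was past 2-fold lower (0.901% of members, beside 0.091% of all genes), against 0 members in the early window (beside 0.0364%). At 0.32 or more, 7 members were higher in the late window (6.31%, beside 4.9%) and 6 lower (5.41%, beside 5.61%), while in the early window 2 were higher (1.80%, beside 2.02%) and 4 lower (3.60%, beside 3.55%). Among the late-window members counted at 0.32, cul4b, usp37 and uchl5 were nearer control by the mean over probe sets (0.08, 0.10 and -0.26). By the probe sets used, the shares of members at this lower threshold were near those of all genes in each direction. The shares lower at 1.5-fold and 2-fold rest on 1 or 2 genes.

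Class medians were compared next. Late-window class medians ran from -0.09 for the 3 E1 enzymes to 0.03 for the 21 deubiquitinases, with -0.02 for 24 E2 enzymes, 0.00 for 32 single-chain E3 ligases, -0.03 for 24 cullin-RING ligase parts and -0.03 for 7 SUMO and NEDD8 proteins and proteases. Early-window medians ran from -0.04 for E1 enzymes to 0.04 for the SUMO and NEDD8 group, with 0.02 for E2 enzymes, -0.02 for single-chain E3 ligases and -0.01 each for cullin-RING ligase parts and deubiquitinases. The class medians thus spanned 0.12 in the late window and 0.08 in the early window, and whether the classes differ was not tested. The widest differences were those of single genes, ube2ql1 among E2 enzymes and rnf13 among single-chain E3 ligases.

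**Figure D1:**
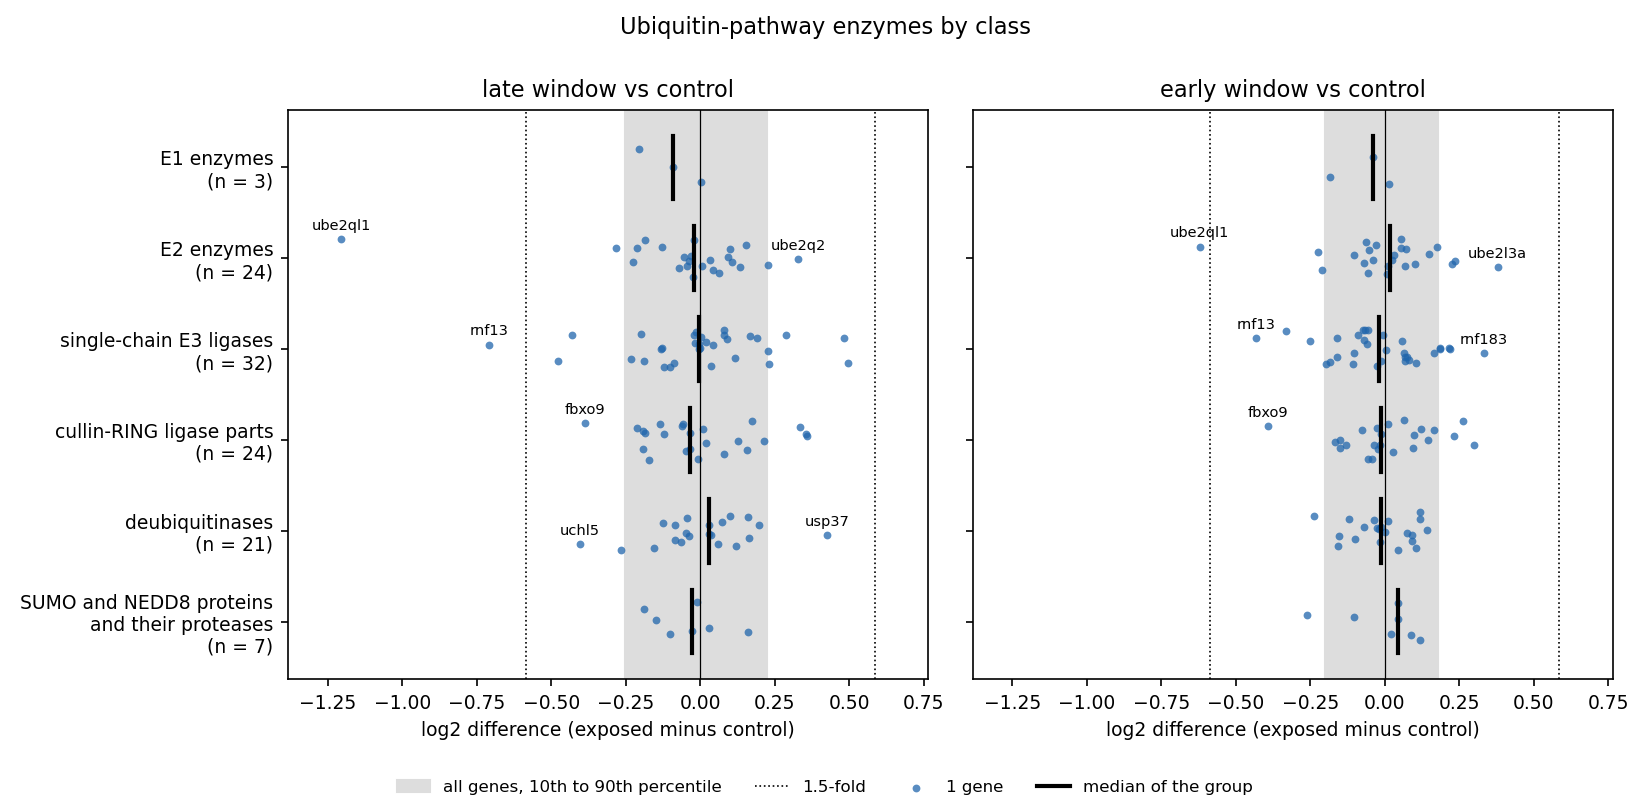
Log2 differences from control (horizontal axis) of the 111 members above the level floor, by class (rows), in the late window (left) and the early window (right). Each point is 1 gene, the black bar is the class median, grey shows the 10th to 90th percentile of all 5492 genes and dotted lines mark 1.5-fold. The class medians sit within 0.09 of control, and ube2ql1 (late and early window) and rnf13 (late window) lie beyond the lower 1.5-fold line.

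E1 enzymes stand at the head of each relay. The transcript of uba1, the main ubiquitin E1, read 10.52 in the late window, 10.62 in the early window and 10.61 in control. That of uba2, the catalytic subunit of the SUMO E1, read 8.99, 9.01 and 9.20, with differences of -0.21 in the late window and -0.19 in the early window. The NEDD8 E1 subunit uba3 read 9.06, 9.02 and 9.06. The 3 genes thus lay less than 0.32 from control on both exposed arrays. The fourth E1 of the set, uba7, which in mammals activates the ubiquitin-like protein ISG15, was under the floor (6.79, 6.85 and 6.88).

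Among E2 enzymes, ube2ql1 stood apart. It encodes an E2-like protein related to the Ube2q enzymes, and its transcript read 8.44 in the late window, 9.02 in the early window and 9.65 in control. It was 2.30-fold lower than control in the late window (-1.20) and 1.54-fold lower in the early window (-0.62). Counted from the lowest difference of the 5492 genes, it ranked 3 in the late window and 28 in the early window. A second, dimmer probe set of ube2ql1 read 6.80, 6.40 and 6.65, all under the floor, with differences of 0.15 and -0.25, and the mean over both probe sets put the gene at -0.53 and -0.44. The low reading thus rests on 1 probe set.

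The 23 other E2 enzymes were set apart after the values of ube2ql1 were seen. Their SD was 0.15 in the late window and 0.14 in the early window, beside 0.23 and 0.17 over all genes, with none left out. Their lowest differences were -0.28 (ube2nb) and -0.22 (ube2d2), and their highest 0.33 (ube2q2) and 0.38 (ube2l3a). The relatives of ube2ql1 read above control in both windows, although the differences of ube2q1 were within the probe-set SD. The transcript of ube2q2 read 9.95, 9.79 and 9.62 on the late-window, early-window and control arrays (differences 0.33 and 0.17), and that of ube2q1 8.28, 8.21 and 8.15 (0.13 and 0.06). The highest E2 of the early window was ube2l3a, whose product serves HECT and RBR ligases such as parkin. It read 8.26, 8.54 and 8.16, so that it was 1.30-fold higher in the early window (0.38) and 1.08-fold higher in the late window (0.11).

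The Ube2d enzymes, which work with many RING ligases, were near control. The transcript of ube2d3 read 10.75, 10.81 and 10.78 on the late-window, early-window and control arrays, and those of ube2d1a and ube2d2l differed from control by -0.07 to -0.03 in either window. The exceptions lay on opposite sides: ube2d1b, near the floor, read 7.23, 7.31 and 7.07, and ube2d2 read 7.58, 7.58 and 7.81. The Ube2n enzymes build signalling chains together with the catalytically inactive Ube2v partners. Their genes ube2na (-0.07 and 0.07), ube2nb (-0.28 and -0.10), ube2v1 (0.10 and 0.15) and ube2v2 (-0.05 and -0.06) showed no common direction. The chain-extending partner of the anaphase-promoting complex, ube2s, differed by -0.02 in the late window and 0.05 in the early window.

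Single-chain E3 ligases, which here include RING, HECT and U-box proteins by name, had 5 of 32 members at least 0.32 from control in the late window, beside 4 of 24 cullin-RING ligase parts. In the late window 2 were higher (6.25%, beside 4.9% of all genes) and 3 lower (9.38%, beside 5.61%). The early window had 1 higher (3.12%, beside 2.02%) and 2 lower (6.25%, beside 3.55%). The lowest was rnf13, a RING ligase of endosome and endoplasmic reticulum membranes. It read 7.38 in the late window, 7.66 in the early window and 8.09 in control, so it was 1.63-fold lower in the late window (-0.71) and 1.35-fold lower in the early window (-0.43). It ranked 17 from the lowest of all genes in the late window. A single probe set carried it, and the late-window reading was near the floor.

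Next in the late window came trim63a, MuRF1, a ligase of striated muscle that marks proteins of the sarcomere for breakdown. It read 7.37, 7.69 and 7.85 on the late-window, early-window and control arrays (differences -0.48 and -0.16). Its duplicate trim63b read 8.69, 8.72 and 8.65 (0.04 and 0.06), and its relative trim55b, MuRF2, 7.81, 8.03 and 7.81. The 9 skeletal muscle markers above the floor had a median difference of 0.01 in the late window, from -0.09 to 0.06, and the part of muscle content in the trim63a reading was not tested. The transcript of trim71, LIN41, a regulator of developmental timing and stem cells, read 8.37, 8.46 and 8.80 (-0.43 and -0.33), lower than control on both exposed arrays. A ligase of the endoplasmic reticulum, trim13, read 7.59, 7.53 and 7.78 (-0.19 and -0.25), with 0.13 and -0.25 in its second bright probe set.

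The highest E3 transcripts of the late window were rnf10 and rnf128a. The product of rnf10 is a RING ligase that ubiquitinates ribosomal proteins when ribosomes stall. It read 10.33, 10.02 and 9.83 on the late-window, early-window and control arrays, 1.41-fold higher in the late window (0.50) and 1.14-fold higher in the early window (0.18). The transcript of rnf128a, a relative of the membrane ligase GRAIL, read 9.13, 8.87 and 8.65 (0.48 and 0.22). For both genes the late-window array was highest and the control array lowest. The highest E3 of the early window was rnf183, at 7.68 against 7.33 in the late window and 7.35 in control (early-window difference 0.33).

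Ligases of the nucleus showed mixed signs. The partners rnf20 and rnf40, which ubiquitinate a histone together, differed by 0.29 and 0.00 in the late window and by -0.07 and -0.10 in the early window, but the second bright probe set of rnf20 gave -0.29 in the late window. Both DNA-damage ligases were slightly higher in either window, rnf8 by 0.17 in each and rnf168 by 0.23 and 0.11. The Polycomb ligase rnf2 was lower (-0.23 and -0.11), as was the SUMO-targeted ligase rnf4 (-0.13 and -0.18). The Smurf ligases, which restrain BMP and TGF-beta signalling, differed by 0.02 and -0.07 for smurf1 and by 0.19 and -0.06 for smurf2. The HECT ligase nedd4l, a regulator of ion channels, differed by 0.12 and 0.06. Most of these values are within or near the probe-set SD.

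**Figure D2:**
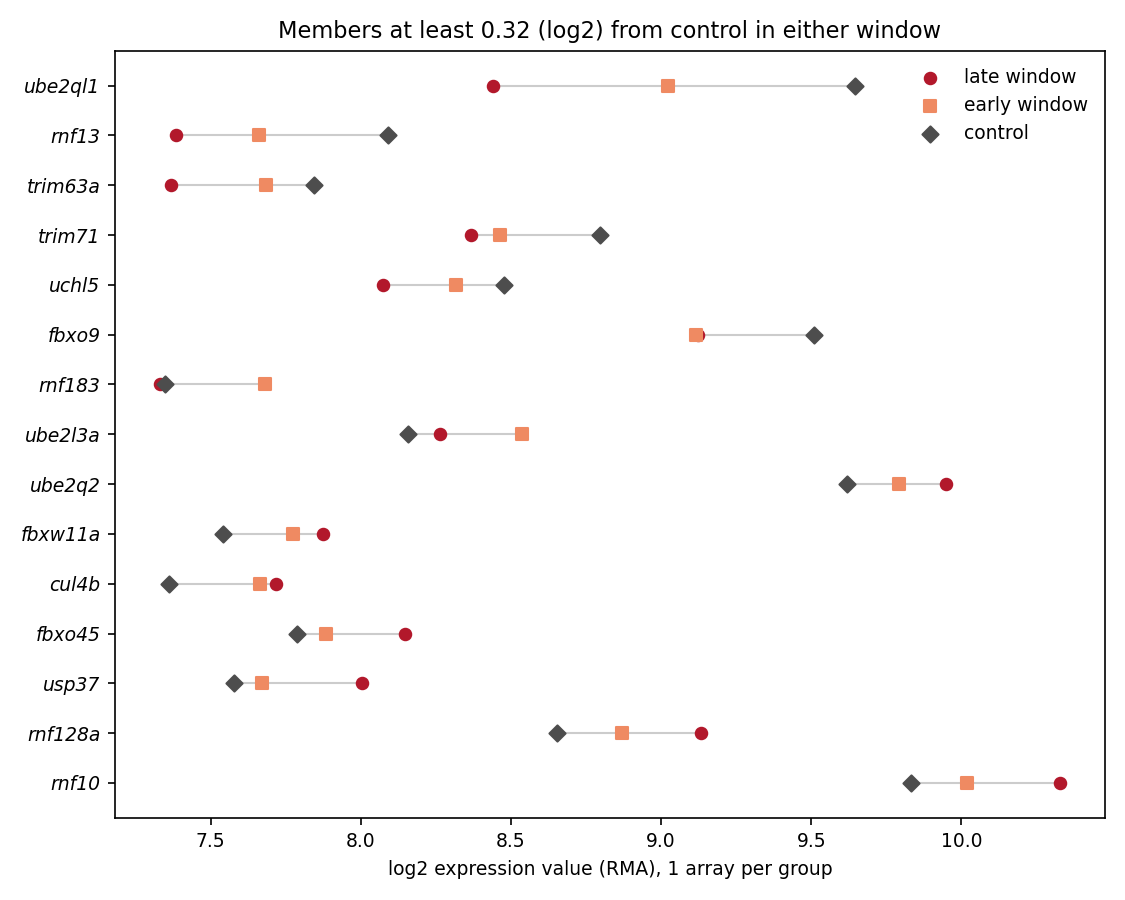
Log2 expression values (horizontal axis) of the 15 members at least 0.32 from control in either window, 1 row per gene. Red circles are the late-window array, orange squares the early-window array and grey diamonds the control array, with 1 array per group, and values are to be compared along a row only. The upper 6 rows, ube2ql1 to fbxo9, have control as the highest reading, and the lower 7 rows, ube2q2 to rnf10, have control as the lowest. This order follows in large part from choosing genes by their distance from control, and both windows share the same control array.

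Cullin-RING ligases are assembled from a cullin, a RING protein, an adaptor and a receptor. The adaptor skp1 read 10.96, 11.08 and 10.95 on the late-window, early-window and control arrays. A RING protein of these ligases, rnf7, is grouped by its name with the single-chain ligases and read 10.20, 10.28 and 10.29. Of the scaffolds, cul1a read 8.90, 8.93 and 8.77 (0.13 and 0.16) and its duplicate cul1b 8.82, 8.88 and 9.01 (-0.19 and -0.13), while cul3a differed by -0.17 in the late window and -0.01 in the early window. The scaffold cul4b, partner of Ddb1, read 7.72, 7.66 and 7.36 (0.35 and 0.30). A second bright probe set of cul4b gave differences of -0.20 and -0.11, so its direction depends on the probe set.

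The F-box receptors choose the substrates. F-box genes, grouped here by name, held the lowest difference of this class in both windows and the highest of the late window. The scaffold cul4b was highest in the early window (0.30). The lowest in both windows was fbxo9, at 9.12 in the late window, 9.12 in the early window and 9.51 in control (-0.39 each). The highest of the late window was fbxo45, a gene of synapse formation, at 8.15, 7.88 and 7.79 (differences 0.36 and 0.10). After the scaffold cul4b (0.35) came fbxw11a, a beta-TrCP receptor for beta-catenin and for the inhibitor of NF-kappa-B. It read 7.88, 7.78 and 7.54 (0.33 and 0.23). The neuronal glycoprotein receptor fbxo2 read 9.51, 9.90 and 9.63, so it was above control in the early window (0.26). Its late-window difference (-0.12) was within the probe-set SD.

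Several other F-box genes lay less than 0.32 from control. They include fbxl3a, which sends cryptochromes of the clock to degradation (-0.04 and -0.06 in the late and early windows), fbxl5, which senses iron (-0.05 and -0.15), and fbxo5, Emi1, an inhibitor of the anaphase-promoting complex (-0.19 and -0.02). The receptor fbxo28 read 10.40, 10.15 and 10.23 on the late-window, early-window and control arrays. Of the 24 members of this class, 3 were at least 0.32 higher in the late window (fbxo45, cul4b and fbxw11a; 12.5%, beside 4.9% of all genes) and 1 lower (fbxo9; 4.17%, beside 5.61%). The mean over probe sets put cul4b at 0.08 in the late window, under that threshold. The early window had 0 higher (beside 2.02%) and 1 lower (fbxo9, 4.17%, beside 3.55%).

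Of the deubiquitinases, 19 of 21 (90.5%) lay less than 0.32 from control in the late window, beside 89.5% of all genes. In the early window 21 of 21 did so, beside 94.4% of all genes (SD 0.10, from -0.24 to 0.14). The highest late-window reading was that of usp37, a protease of DNA replication and the cell cycle, at 8.00 in the late window, 7.67 in the early window and 7.58 in control (0.43 and 0.09). Its 3 other probe sets were all under the floor. By its name, 1 of them reads the same target sequence as the probe set used, and it differed by 0.39 in the late window. The others, named for another sequence, differed by -0.30 and -0.11. The lowest was uchl5, which trims chains at the proteasome, at 8.07, 8.32 and 8.48 (-0.40 and -0.16), with -0.12 and -0.06 in its second bright probe set. Another proteasome-bound deubiquitinase, usp14, read 8.12, 8.07 and 8.08.

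The lowest deubiquitinase of the early window was usp19, which is anchored in the endoplasmic reticulum (7.93, 7.96 and 8.19 in the late window, early window and control; -0.27 and -0.24). The highest was usp8, which acts on cargo at endosomes (8.42, 8.36 and 8.22; 0.20 and 0.14). Neuronal uchl1 read 8.27, 8.27 and 8.42 (-0.15 and -0.16), beside medians of -0.14 and -0.12 for the 8 markers of neurons and glia, and the part of these markers in that value was not tested. The p53-linked proteases usp7 (0.10 and -0.04) and usp10 (0.16 and -0.03), the DNA-repair protease usp1 (-0.04 and -0.02) and usp5, which recycles free chains (-0.05 and -0.02), were near control by the probe sets used.

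The proteins and proteases of SUMO and NEDD8 also stayed less than 0.32 from control. The transcript of sumo3a read 11.26, 11.33 and 11.29 on the late-window, early-window and control arrays, and that of sumo2b 10.65, 10.58 and 10.49. The nedd8 transcript read 8.86, 8.94 and 9.05 (-0.19 and -0.10). Of the SUMO proteases, senp3b, a nucleolar enzyme, read 8.10, 7.95 and 8.21 (-0.10 and -0.26), its duplicate senp3a 7.52, 7.68 and 7.66, senp2 8.11, 8.20 and 8.08, and senp7b 7.56, 7.62 and 7.57. Only sumo2b and senp2 were above control in both windows, and the late-window difference of senp2 was 0.03. A second senp2 probe set, under the floor, gave -0.12 in the late window and -0.13 in the early window.

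Set against each other by the deposited values, the exposed arrays differed little in these genes. No member was at least 1.5-fold higher (beside 1.22% of all genes) or lower (beside 0.528%) in the late than in the early window, and 106 of 111 (95.5%) were less than 0.32 apart, beside 91.9% of all genes. At 0.32 or more, 2 members were higher (beside 4.15%) and 3 lower (beside 3.93%) in the late window. The largest differences were in ube2ql1 (-0.58), fbxo2 (-0.38) and rnf183 (-0.35) below and rnf20 (0.36) and usp37 (0.33) above. The difference of ube2ql1 fell just short of 1.5-fold. These values depend on the probe set: the mean over probe sets gave -0.09 for ube2ql1 and 0.08 for usp37, and the second bright probe set of rnf20 gave -0.23. The class medians lay between -0.07 (SUMO and NEDD8 group) and 0.01 (single-chain E3 ligases), beside -0.01 for all genes. If the spike-ins set the scale, 40 of 120 members (33.3%) would be past 1.5-fold lower in the late window, beside 33.9% of all genes.

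For 12 members more than 1 bright probe set could be compared, which shows how far a single reading can be trusted. For the late window the gap between the lowest and highest probe set had a median of 0.34 over these members, beside 0.14 over 718 genes, and in 8 of 12 (66.7%) the probe sets lay on opposite sides of control, beside 38.4% of the 718 genes. For the early window the median gap was 0.09, beside 0.11, and 5 of 12 (41.7%) had opposite signs, beside 38.3%. The widest late-window gap was that of usp10, whose probe sets differed from control by 0.16 and -0.56. Next was usp42 (0.07 and -0.57). The probe sets of rnf20 gave 0.29 and -0.29 in the late window, those of ube2e3 0.09 and -0.42 and those of usp7 0.10 and -0.18. Close readings came from fbxo44.1 (0.21 and 0.18). Most members have only 1 probe set above the floor and no such comparison.

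**Figure D3:**
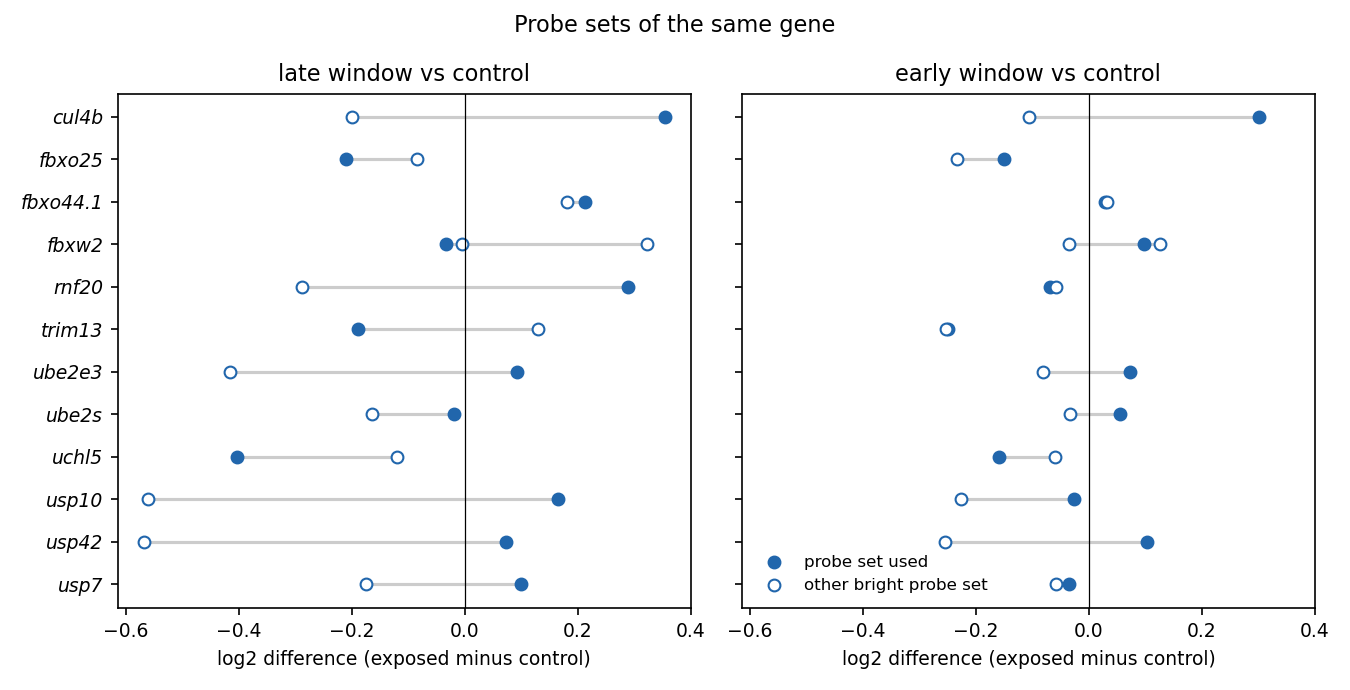
Log2 differences from control (horizontal axis) given by each bright probe set of the 12 members (rows) with more than 1, in the late window (left) and the early window (right). Filled circles are the probe sets used for the gene, open circles the others. In the late window the points of usp10, usp42, rnf20, cul4b and ube2e3 lie on opposite sides of 0, and the gaps of these 5 genes are narrower in the early window.

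Zebrafish keep many genes as duplicates named a and b, and 9 such pairs had both copies above the floor. Their copies did not share a direction in 5 of 9 pairs in the late window, beside 43.5% of 363 pairs over all genes, and in 7 of 9 in the early window, beside 46.8%. In the pairs with opposite directions a copy lay within the probe-set SD, except for cul1a (0.16) and cul1b (-0.13) in the early window. The median gap between copies was 0.21 in the late window, beside 0.16 over all pairs, and 0.26 in the early window, beside 0.14. The widest late-window gap was between trim63a and trim63b (-0.51), followed by fbxw11a (0.33) and fbxw11b (-0.14). The copies of ube2g1 stood at 0.23 (ube2g1a) and -0.13 (ube2g1b). Farthest apart after early exposure were ube2l3a (0.38) and ube2l3b (0.01). Each copy is read by its own probe set, so a gap of this size also holds the spread between probe sets.

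**Figure D4:**
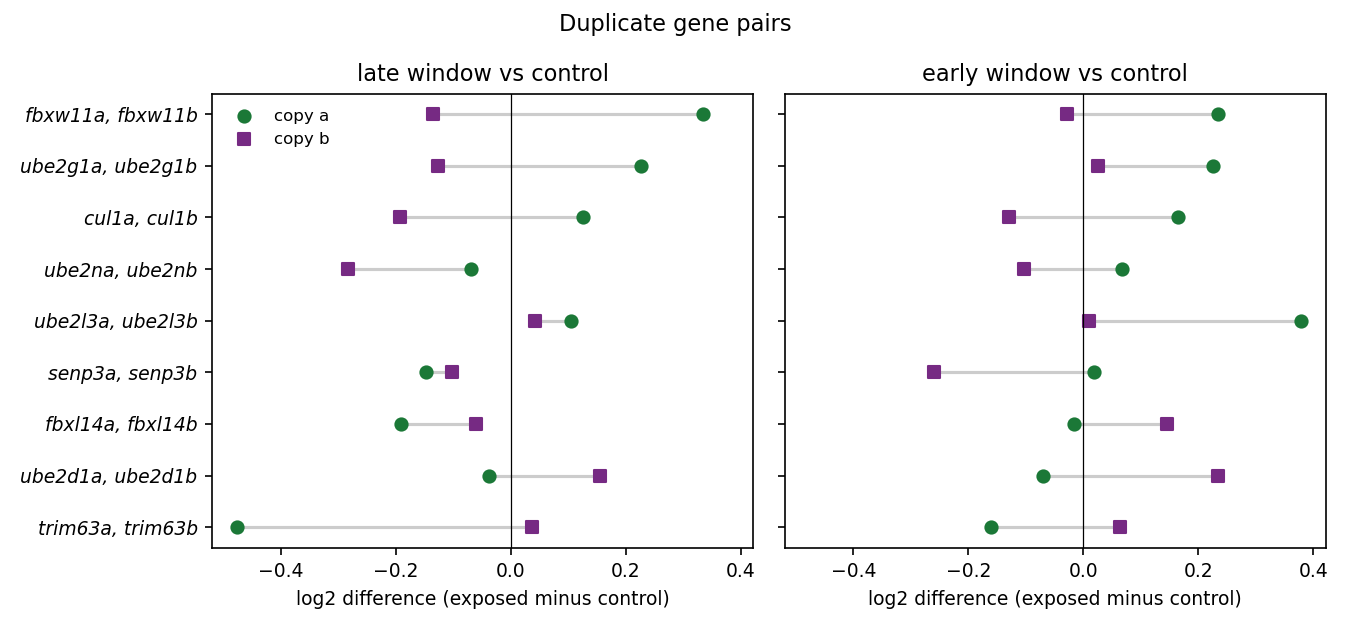
Log2 differences from control (horizontal axis) of the 9 duplicate pairs (rows) in the late window (left) and the early window (right). Green circles are copy a and purple squares copy b. The pairs of trim63 and fbxw11 are widest in the late window and that of ube2l3 in the early window.

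The 55 members under the floor were 23 single-chain E3 ligases, 14 cullin-RING parts, 12 deubiquitinases, 3 E2 enzymes, 2 of the SUMO and NEDD8 group and 1 E1. None was past 1.5-fold in any comparison, beside 0.515% higher and 0.485% lower of the 3301 genes under the floor in the late window, and 0.0606% and 0.182% in the early window, and 0.606% and 0.212% between the exposed windows. Their median difference was 0.05 in the late window and -0.03 in the early window, beside 0.06 and -0.01 for all genes under the floor. The lowest in the late window was fbxo32, atrogin-1, the other muscle-atrophy ligase beside MuRF1, at 5.02 in the late window, 5.08 in the early window and 5.44 in control. The highest was fbxl3b (7.09, 6.97 and 6.67). The lowest of the early window was usp21 (4.36, 4.02 and 4.53). The nearest members on either side of the floor were rnf146, with a highest value of 7.22, and cul5b, with 7.18.

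Other genes of the pathway that the name rule does not reach were taken from lists of 145 genes, of which 92 were measured and 78 were above the floor. Their median difference was 0.01 in both windows, with 1 gene of 78 (1.28%) past 1.5-fold higher in each, beside 1.11% of all genes in the late window and 0.401% in the early window. None was past 1.5-fold lower, beside 0.674% and 0.601%. The late-window gene was tiparp (9.31, 8.53 and 8.32 on the late-window, early-window and control arrays). It was listed with the ligases but encodes an ADP-ribosyltransferase that represses the aryl hydrocarbon receptor. The early-window gene was socs3b, a cytokine-signalling inhibitor that can act as a cullin-RING receptor (8.23, 8.59 and 7.93). Without tiparp, a choice made after its values were seen, 0 of 77 genes were past 1.5-fold in the late window.

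Below that threshold, the highest late-window readings were those of keap1a and sqstm1. The first encodes the Cul3 receptor of Nrf2 (8.75, 8.16 and 8.20; differences 0.55 and -0.04). The second encodes p62, a ubiquitin-binding autophagy receptor (8.82, 8.45 and 8.29; 0.52 and 0.15). The difference of keap1a between the exposed arrays was 0.59, and with tiparp (0.78) it was past 1.5-fold higher in the late window. These were 2 of 78 genes (2.56%), beside 1.22% of all genes, and 0 were past 1.5-fold lower, beside 0.528%. The lowest in the late window were pias4a, a SUMO ligase (-0.27), dcaf7 (-0.23) and cand1, which exchanges receptors on cullins (-0.21). The lowest in the early window were hgs, an endosomal sorter of ubiquitinated cargo (-0.23), ubxn7 (-0.17) and huwe1, a HECT ligase (-0.17).

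The modifier ufm1, a ubiquitin-like protein of the endoplasmic reticulum, read 7.90 in the late window, 7.93 in the early window and 7.47 in control (0.43 and 0.46), and tiparp differed by 0.21 in the early window. Ubiquitin itself is encoded by several genes. The polyubiquitin gene ubb read 14.04, 14.03 and 14.08, and the fusion gene rps27a, which also encodes a ribosomal protein, differed by 0.10 and 0.17. The E1 partners sae1 (SUMO) and nae1 (NEDD8) differed by -0.18 and -0.01 in the late window and by -0.02 and 0.03 in the early window. The regulators and ubiquitin receptors had the highest list median in the late window, 0.08 over 20 genes, beside -0.01 in the early window.

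**Figure D5:**
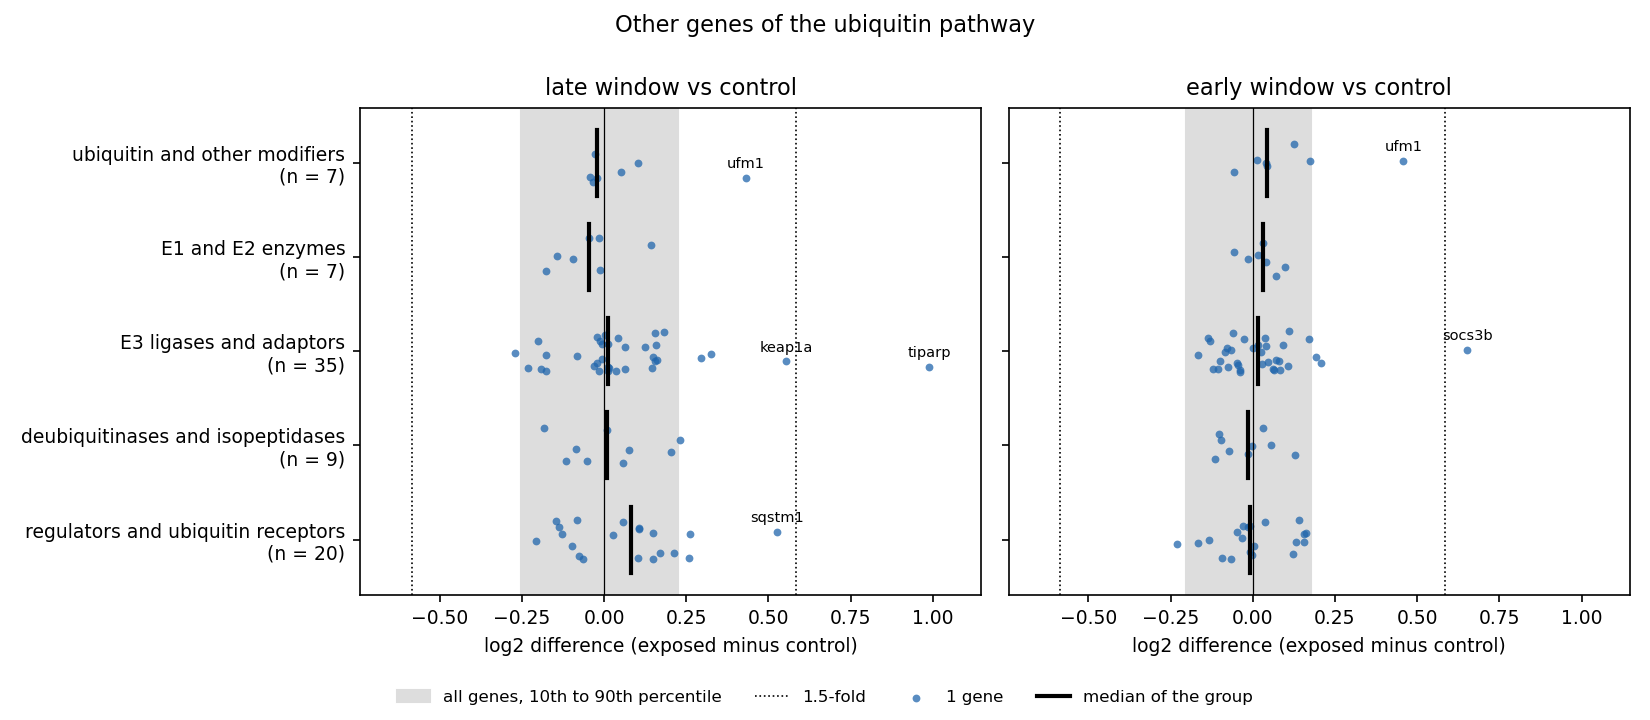
Log2 differences from control (horizontal axis) of 78 further ubiquitin-pathway genes, by list (rows), in the late window (left) and the early window (right). Points are genes, black bars list medians, grey the 10th to 90th percentile of all 5492 genes and dotted lines 1.5-fold. Only tiparp (late window) and socs3b (early window) lie beyond 1.5-fold, with keap1a and sqstm1 next in the late window and ufm1 at 0.43 and 0.46.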

How the data were processed

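Each group has 1 Affymetrix zebrafish array. The authors deposited log2 values for 15617 probe sets, computed by RMA per the submitters' processing notes. RMA gives the arrays a common distribution and so largely removes a shift of all genes. The software used for it is not named. Probe sets were named from the platform annotation of 2016 (10802 with 1 symbol, 135 with several, 4680 with none), and Entrez IDs of all 166 members matched a RefSeq table. Members with several probe sets (28) are represented by the probe set with the highest mean over the arrays. No test was run, because 1 array per group leaves no replicate spread, and their number limits the precision. Counts use 1.5-fold (0.58 on the log2 scale), with 0.32 on that scale and 2-fold as alternatives, besides other normalizations, filters and probe-set choices. Named genes are members past 1.5-fold, the 6 highest and 6 lowest of each comparison with control, the extremes of each class, all of classes with up to 8 genes and the 3 with the highest mean level, and others are named for their role, chosen after their values were seen. Members, classes and lists were chosen with earlier results of these data known. Python 3.11.15, pandas 2.3.3 and numpy 2.4.6 were used, and the counting steps were tested on simulated data.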

Additional observations from a re-analysis of the deposited data

How the results depend on the processing

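The 21 medians (all members and 6 classes, 3 comparisons, relative to all genes) stayed between -0.10 and 0.13 under every alternative, and 14 of them changed sign under at least 1. The deubiquitinase median between the exposed windows moved most among them, to 0.128 when only genes reaching the 75th percentile of all values were kept. The count of members past 1.5-fold lower, late window against control, was 1 with that filter and with the mean over probe sets. It was also 1 at 2-fold (beside 0.091% of all genes). For the early window that count was 0 with the mean over probe sets, at 2-fold (beside 0.0364%) and on the spike-in scale (beside 0.0171%). With median centring, 1 member was lower in the late than in the early window. The share of all genes was not counted with the 75th-percentile filter, the mean over probe sets or median centring. Whether members differ from all genes in those settings was therefore not tested. At 0.32 on the log2 scale the counts were 7 higher and 6 lower (late window against control), 2 and 4 (early window against control), and 2 and 3 (late against early window). On the spike-in scale 33 of the 120 members then above the floor were higher in the early window than in control (27.5%, beside 26.1% of all genes) and 40 lower in the late than in the early window (33.3%, beside 33.9%). The mean over probe sets put ube2ql1 at -0.53 and -0.44 in the late and early windows and cul4b at 0.08 and 0.10. In the late window it put usp37 at 0.10 and uchl5 at -0.26, so the counts at 0.32 depend on the probe set. The cause was not tested. No paired analysis was possible because each group has 1 array and no label pairs the arrays. Probe sets for bacterial and tag sequences had medians of 4.50, 4.27 and 4.16 on the late-window, early-window and control arrays, under the floor of 7.21, and signal over background limits what dimmer members can show.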
